A study of Mus musculus with 12 samples.

Results

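The genes described here are the liver growth hormone receptor, the STAT5 transcription factors it activates, and a set of their known liver targets and partners. They were taken from the deposited count table by symbol: Ghr, Stat5a, Stat5b, Socs2, Cish, Igf1, Igfals, Bcl6, Cux2 and Trim24. All 10 were found among the 22537 genes of the table, and all 10 passed the filter on low counts that left 13968 genes for testing. Poly-A RNA was sequenced from 12 livers of female C57BL/6 mice, 6 months of age, after 13 weeks of high-fat diet, with 3 livers in each of the groups AHR KO, AHR Flox, ARNT KO and ARNT Flox. AHR is the aryl hydrocarbon receptor, a transcription factor activated by small molecules, and ARNT is the partner it needs to bind DNA. By their labels, the KO livers are knockouts of the named gene and the Flox livers carry its floxed allele, and each KO group was read against the Flox group of the same gene. Not given in the sources used here are the recombinase line, the deleted part of each gene, and whether Flox mice carry a recombinase. Nothing in the labels says how the samples of a group are related, so the p-values measure only the spread between these samples.

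Growth hormone from the pituitary binds its receptor on hepatocytes, and the receptor-bound kinase JAK2 then phosphorylates STAT5A and STAT5B, which dimerise, enter the nucleus and switch on target genes. Among those targets are the feedback inhibitors SOCS2 and CISH, and insulin-like growth factor 1 with the protein that carries it in blood. Male and female mice release growth hormone in different patterns, and the liver reads the pattern: BCL6 is a repressor that opposes STAT5 and is higher in male liver, while CUX2 is a repressor of male-biased genes that is expressed mainly in female liver. AHR and ARNT bind DNA together at sites with the core GCGTG.

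Libraries held 23585909 to 33255004 counts, of which each of the 10 genes had between 272 and 27684. Arnt held 25.2, 23.9 and 19.0 CPM (counts scaled to a common library size) in ARNT KO livers, against 47.8, 52.5 and 50.3 CPM in ARNT Flox livers (log2 change −1.15 ± 0.12 SE, edgeR adjusted p = 0.00601). Ahr held 86.5 ± 7.48 CPM in AHR KO livers and 68.4 ± 12.9 CPM in AHR Flox livers (SD, n = 3 each). A count over the whole gene does not check the AHR KO label, since a deletion can leave the rest of the transcript in place. ARNT KO replicate 3 stood apart from the other libraries, at 65.3 on a first principal component with 43% of the variance, where the others lay between −30.9 and 30.3. That library was the lowest of the 12 for 8 of the 10 genes and for 21.5% of all genes tested, so values without it are given beside the results it moves most. In whole liver tissue, fewer cells of a type and less RNA per cell cannot be told apart.

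Per kilobase of exon, and as means over the 12 libraries, Ghr (71.4 CPM per kb), Igf1 (69.2 CPM per kb) and Igfals (50.4 CPM per kb) were the most abundant of the 10 transcripts. The length merges the exons of all annotated transcripts of a gene. A gene whose liver transcripts are much shorter is understated, so close places in the order are uncertain. Stat5b had 13.7 CPM per kb, Trim24 11.7 CPM per kb and Cux2 6.37 CPM per kb. The feedback inhibitor transcripts were lower, with 4.78 CPM per kb of Socs2 and 4.76 CPM per kb of Cish, and Stat5a (3.19 CPM per kb) and Bcl6 (2.53 CPM per kb) were the lowest. Stat5b was therefore the more abundant STAT5 transcript, with the limit that the transcripts of both genes share sequence: 8.21% of the 50-base windows of Stat5a also occur in Stat5b, and reads from them can be split between the genes by the counting.

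By group mean, AHR KO was the highest of the 4 groups for Socs2, Cish, Igf1, Igfals, Cux2 and Trim24, and ARNT KO the lowest for the same 6 genes. For Cish, Igfals and Trim24 the low place of ARNT KO rests on its replicate 3. The Cish mean was 22.7 CPM in ARNT KO and 22.9 CPM in AHR Flox, with 22.9 and 26.1 CPM in ARNT KO replicates 1 and 2. Without replicate 3 the log2 changes of Igfals and Trim24 against ARNT Flox were 0.02 ± 0.14 and 0.08 ± 0.11 (SE). AHR Flox was the highest for Ghr, Stat5a, Stat5b and Bcl6, of which the first 3 were lowest in ARNT Flox and Bcl6 was lowest in AHR KO. Few neighbours in these orders were separated by more than their spread. Ranges did not overlap between AHR KO and AHR Flox for Igf1, between AHR KO and ARNT Flox for Cux2, between AHR KO and AHR Flox for Stat5a, between ARNT KO and ARNT Flox for Igf1, and between ARNT Flox and AHR Flox for Socs2. All other neighbours of the 10 genes overlapped.

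**Figure D1:**
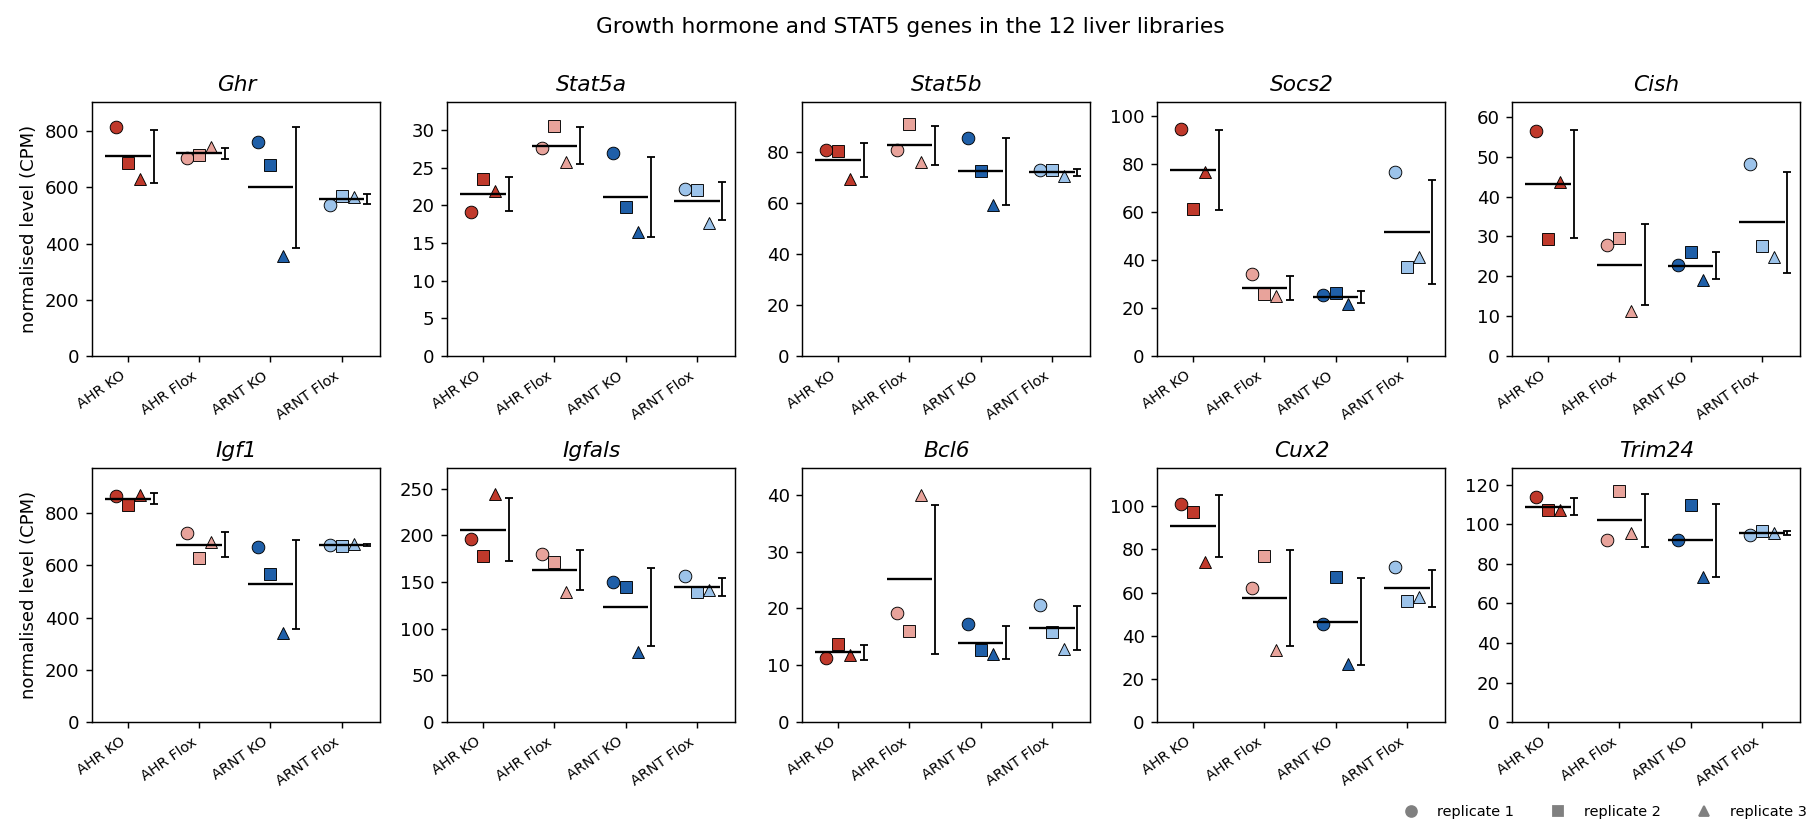
Normalised level (CPM, linear axis from 0) of each of the 10 genes in every liver. Symbols mark replicates 1 to 3, horizontal lines the group means and bars ± 1 SD (n = 3). Socs2 lay between 61.3 and 94.5 CPM in AHR KO livers, above all AHR Flox livers, and between 21.9 and 26.4 CPM in ARNT KO livers, below all ARNT Flox livers.

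In AHR KO livers none of the 10 genes passed the test against AHR Flox (edgeR's quasi-likelihood test, with Benjamini-Hochberg adjustment over all genes tested and a threshold of 0.05), where 0.0788% of all genes passed. At an unadjusted p under 0.05 there were 4 of the 10, against 11.9% of all genes: Socs2 and Cish were higher, as 6.33% of all genes were, and Bcl6 and Stat5a lower, as 5.58% were. In ARNT KO livers also none passed against ARNT Flox, where 0.0573% of all genes passed, and Socs2 alone had an unadjusted p under 0.05, which 5.88% of all genes had (2.53% in the lower direction). The DESeq2 test on the same counts called Socs2 and Bcl6 in the AHR comparison and Socs2 in the ARNT comparison, where it called 2.57% and 0.401% of all genes. The difference between both effects (ARNT KO against ARNT Flox, minus AHR KO against AHR Flox) was tested directly, and Socs2 was the 1 of the 10 genes that passed it, where 0.043% of all genes passed, or 1.06% with DESeq2.

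The receptor gene, Ghr (chromosome 15, 3317760 to 3583492 on the minus strand, GRCm38), did not separate the knockouts from their controls. It held 813, 687 and 628 CPM in AHR KO livers, against 703, 716 and 741 CPM in AHR Flox livers. The ARNT KO livers held 761, 680 and 355 CPM, against 538, 569 and 566 CPM in ARNT Flox livers. The groups of both pairs overlapped, and ARNT KO replicate 3 was the lowest of all livers while its group mates lay above every ARNT Flox liver. The log2 change was −0.02 ± 0.22 (SE) in AHR KO (edgeR adjusted p = 0.985) and 0.10 ± 0.22 in ARNT KO (edgeR adjusted p = 1.00). The ARNT value was 0.37 ± 0.11 without ARNT KO replicate 3, still short of the threshold (edgeR adjusted p = 0.128).

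Stat5a (chromosome 11, 100859351 to 100885169 on the plus strand) and Stat5b (100780731 to 100850724 on the minus strand) are neighbours and encode the STAT5 proteins. Stat5a held 19.1, 23.5 and 21.9 CPM in AHR KO livers, against 27.6, 30.5 and 25.7 CPM in AHR Flox livers. Every AHR KO liver lay below every AHR Flox liver, which 9.46% of all genes showed, but the log2 change of −0.38 ± 0.16 missed the threshold (unadjusted p = 0.0416, edgeR adjusted p = 0.394). For Stat5a the ARNT KO livers held 26.9, 19.8 and 16.5 CPM, against 22.1, 22.0 and 17.7 CPM in ARNT Flox livers, so these groups overlapped (log2 change 0.03 ± 0.16). For 72 bases the exons of Stat5a overlap those of Stat3 on the other strand, and no source used here gives the strand setting of the counting.

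Stat5b averaged 76.8 ± 6.49 CPM in AHR KO livers and 82.5 ± 7.48 CPM in AHR Flox livers (SD, n = 3 each), with overlapping values. Its averages were 72.3 ± 13.1 CPM in ARNT KO livers and 72.0 ± 1.33 CPM in ARNT Flox livers (SD, n = 3 each). The log2 changes were −0.10 ± 0.12 and 0.00 ± 0.12, neither past the threshold (edgeR adjusted p = 0.806 and 1.00).

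Socs2 (chromosome 10, 95385362 to 95417180 on the minus strand), the feedback inhibitor whose loss causes gigantism in mice, differed most between the knockouts. It held 94.5, 61.3 and 76.8 CPM in AHR KO livers, against 34.1, 25.9 and 25.1 CPM in AHR Flox livers. The ARNT KO livers had 25.5, 26.4 and 21.9 CPM, against 76.7, 37.1 and 41.4 CPM in ARNT Flox livers. Every AHR KO liver was above every AHR Flox liver, which 11.7% of all genes showed, and every ARNT KO liver was below every ARNT Flox liver, which 4.9% of all genes showed. Group means were 77.5 ± 16.6 CPM in AHR KO and 28.4 ± 4.96 CPM in AHR Flox, and 24.6 ± 2.37 CPM in ARNT KO and 51.7 ± 21.7 CPM in ARNT Flox (SD, n = 3 each).

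In AHR KO livers the mean of Socs2 was 2.73-fold higher (log2 change 1.45 ± 0.26), which missed the threshold (unadjusted p = 0.000131, edgeR adjusted p = 0.0633). Over 20 other settings the edgeR, DESeq2 or limma adjusted p ran from 2.38e-05 to 0.336, and 6 of them were under 0.05, among them the fits without ARNT KO replicate 3 (0.0315, where 0.966% of all genes passed) and without ARNT Flox replicate 1 (0.0152). The mean was 2.10-fold lower in ARNT KO livers (log2 change −1.07 ± 0.26), with an unadjusted p of 0.00137 and an edgeR adjusted p of 0.375. ARNT Flox replicate 1 held the highest value of its group, and without it the log2 change was −0.67 (edgeR adjusted p = 0.999).

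The effects of both knockouts on Socs2 differed by −2.52 ± 0.36 on the log2 scale, a ratio of 5.75-fold, and this difference passed the test (unadjusted p = 1.98e-05, edgeR adjusted p = 0.0461). It was the sixth-smallest p of the 13968 genes. DESeq2 gave an adjusted p of 4.78e-08. In the fits with 1 library left out the difference stayed between −2.70 and −2.12, but the call was lost in 9 of the 12. These were the fits without AHR KO replicates 1, 2 and 3 (edgeR adjusted p = 0.0817, 0.0833 and 0.123), AHR Flox replicates 1, 2 and 3 (0.0843, 0.0863 and 0.187), ARNT KO replicates 1 and 2 (0.0845 and 0.132) and ARNT Flox replicate 3 (0.108). Without ARNT KO replicate 3 the call remained, at −2.44 ± 0.38 (edgeR adjusted p = 0.0153), where 1.38% of all genes passed.

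**Figure D2:**
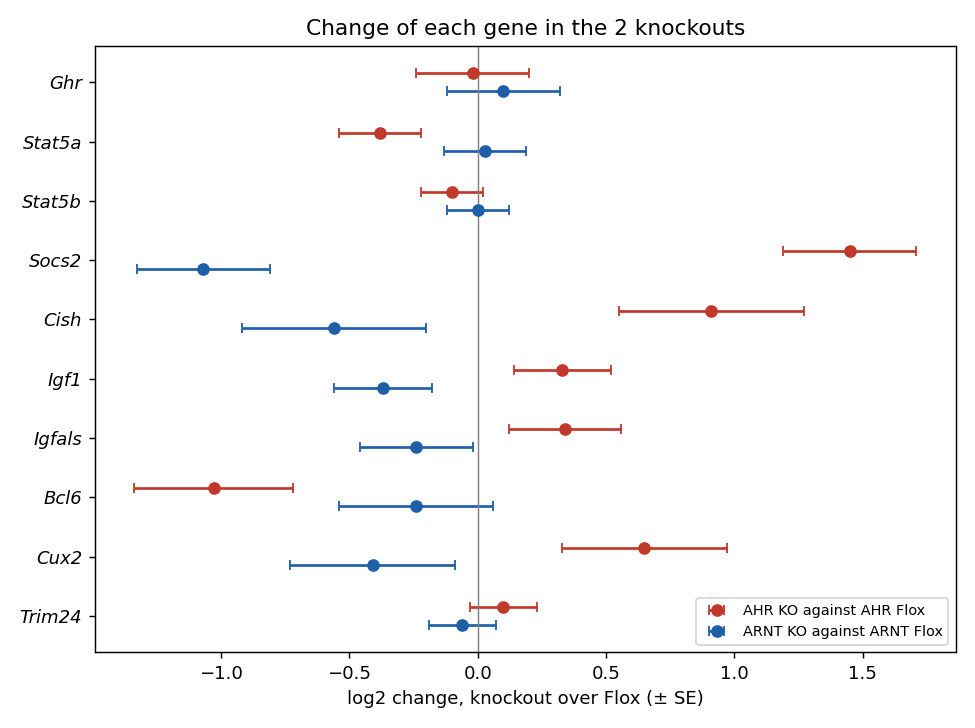
Log2 change of each of the 10 genes in AHR KO against AHR Flox (red) and ARNT KO against ARNT Flox (blue), with bars of ± 1 SE from the fit. Socs2 lies at 1.45 in AHR KO and −1.07 in ARNT KO, while Ghr, Stat5b and Trim24 lie between −0.10 and 0.10 in both.

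Cish (chromosome 9, 107296026 to 107302784 on the plus strand), the founding member of the SOCS family and a classical STAT5 target, had the same order of group means as Socs2. In that order the place of ARNT KO below AHR Flox rests on ARNT KO replicate 3. Cish held 56.5, 29.3 and 43.7 CPM in AHR KO livers, against 27.8, 29.6 and 11.3 CPM in AHR Flox livers. The ARNT KO livers held 22.9, 26.1 and 19.2 CPM, against 48.1, 27.6 and 24.9 CPM in ARNT Flox livers. The groups of both pairs overlapped: AHR KO replicate 2 lay between AHR Flox values, and ARNT KO replicate 2 lay above the lowest ARNT Flox liver. The log2 change was 0.91 ± 0.36 in AHR KO (unadjusted p = 0.0266, edgeR adjusted p = 0.341) and −0.56 ± 0.36 in ARNT KO (edgeR adjusted p = 0.918). AHR Flox replicate 3 was the lowest of the 12 livers, and without it the AHR value was 0.58 ± 0.31. The difference between the effects, −1.48 ± 0.51, missed the threshold (unadjusted p = 0.0136, edgeR adjusted p = 0.393).

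STAT5 dimers recognise the palindrome TTCNNNGAA, which reads the same on both strands, and it was searched in RefSeq promoter sequences of GRCm38.p6, from 250 bases before to 50 after each start site. Entries were matched by symbol for 9 of the 10 genes, all but Socs2. The motif was found in 5 of the 17 sequences of these genes, belonging to Cish, Igfals and Bcl6, and in 8.3% of all 32851 promoter sequences. Its letters say only what these windows hold, not whether a factor binds. Cish holds 2 matches within 20 bases, beginning at the start site itself and 11 bases after it, and the stretch is shown because Cish and Socs2 levels were correlated from liver to liver. It lies at chr9:107296649-107296678 on the plus strand, from base −10 to base 20, with the matches in capitals.
Cish: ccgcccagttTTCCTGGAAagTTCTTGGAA

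Igf1 (chromosome 10, 87858265 to 87937042 on the plus strand) encodes insulin-like growth factor 1, the hormone through which the liver relays much of the growth signal. It held 867, 833 and 868 CPM in AHR KO livers, against 724, 627 and 690 CPM in AHR Flox livers. Its levels were 670, 569 and 341 CPM in ARNT KO livers, against 680, 673 and 681 CPM in ARNT Flox livers. Neither pair of groups overlapped: AHR KO livers lay above and ARNT KO livers below their controls. The mean was 1.26-fold higher in AHR KO (log2 change 0.33 ± 0.19, edgeR adjusted p = 0.534) and 1.29-fold lower in ARNT KO (log2 change −0.37 ± 0.19, edgeR adjusted p = 0.862). Without ARNT KO replicate 3, which held the lowest value of all, the ARNT value was −0.13 ± 0.10, and the AHR value was 0.33 ± 0.09 with an unadjusted p of 0.00334 (edgeR adjusted p = 0.0946). The difference between the effects was −0.70 ± 0.27 (unadjusted p = 0.0251, edgeR adjusted p = 0.446), and −0.45 ± 0.13 without that library.

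Igfals (chromosome 17, 24865997 to 24882010 on the plus strand) encodes the acid-labile subunit that holds IGF1 in a stable complex in blood. It held 196, 178 and 244 CPM in AHR KO livers, against 180, 171 and 139 CPM in AHR Flox livers. Its levels were 150, 145 and 75.0 CPM in ARNT KO livers, against 157, 139 and 141 CPM in ARNT Flox livers. Values overlapped in both pairs, and ARNT KO replicate 3 was again lowest. The log2 change was 0.34 ± 0.22 in AHR KO (edgeR adjusted p = 0.603) and −0.24 ± 0.22 in ARNT KO (edgeR adjusted p = 0.982), and the ARNT value was 0.02 ± 0.14 without ARNT KO replicate 3.

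The promoters of Igfals are shown because each of the RefSeq windows around its start sites holds a STAT5 palindrome and its transcript was correlated with Igf1. The first stretch lies at chr17:24877594-24877623 on the plus strand, from base −250 to base −221 of the upstream start site. The second lies at chr17:24878111-24878230, from base −120 to base −1 of the downstream start site, and its match begins 58 bases before that start.
Igfals, upstream start: tgccgatctataatTTCTCAGAAaagaggc
Igfals, downstream start: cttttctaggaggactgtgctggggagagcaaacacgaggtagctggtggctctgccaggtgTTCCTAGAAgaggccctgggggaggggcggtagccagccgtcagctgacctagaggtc

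Bcl6 (chromosome 16, 23965052 to 23988852 on the minus strand), the repressor that competes with STAT5 for its sites, was the gene with the largest decrease in AHR KO among the 10, without passing the test. It held 11.3, 13.8 and 11.8 CPM in AHR KO livers, against 19.1, 16.0 and 40 CPM in AHR Flox livers. Its levels were 17.3, 12.6 and 12 CPM in ARNT KO livers, against 20.6, 15.9 and 12.9 CPM in ARNT Flox livers. All AHR KO values lay below all AHR Flox values, whereas the ARNT groups overlapped. AHR Flox replicate 3, the liver with the least Cish, held by far the most Bcl6. The mean was 2.04-fold lower in AHR KO (log2 change −1.03 ± 0.31, unadjusted p = 0.00609, edgeR adjusted p = 0.198), and 1.44-fold lower without AHR Flox replicate 3 (log2 change −0.52 ± 0.21, edgeR adjusted p = 0.589). DESeq2 called it in AHR KO, with an adjusted p of 0.0365. In ARNT KO the log2 change was −0.24 ± 0.30 (edgeR adjusted p = 0.995), and the difference between the effects was 0.78 ± 0.43 (edgeR adjusted p = 0.634).

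Bcl6 had 3 palindromes in the window of a start site inside the gene, where 0.457% of all promoter sequences had 2 or more, and 1 in the window of the first start site. The stretch with the 3 matches lies at chr16:23981334-23981473, read on the minus strand from base −190 to base −51.
Bcl6, internal start: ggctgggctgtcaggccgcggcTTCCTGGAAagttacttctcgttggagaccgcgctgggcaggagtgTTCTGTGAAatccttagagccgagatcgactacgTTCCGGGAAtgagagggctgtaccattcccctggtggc

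The AHR core, searched as GCGTG or CACGC to cover both strands, was found in 4 of the 17 promoter sequences, belonging to Ghr, Igf1 and Stat5b, and in 32.4% of all promoter sequences. A pair of the Ghr matches overlaps. None of the 10 genes passed the test in either knockout, so genes with and without this core cannot be told apart by it. Socs2 had no promoter entry and was not searched for the core.

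Cux2 (chromosome 5, 121856366 to 122050102 on the minus strand), the repressor of male-biased liver genes, varied widely within groups. It held 101, 97.4 and 74.2 CPM in AHR KO livers, against 62.2, 77.1 and 33.6 CPM in AHR Flox livers. The ARNT KO livers held 45.3, 67.4 and 27.1 CPM, against 71.9, 56.0 and 58.2 CPM in ARNT Flox livers. Both pairs of groups overlapped, and in each the lowest liver was a replicate 3. The log2 change was 0.65 ± 0.32 in AHR KO (edgeR adjusted p = 0.461), or 0.38 ± 0.30 without AHR Flox replicate 3. In ARNT KO it was −0.41 ± 0.32 (edgeR adjusted p = 0.965), or −0.13 ± 0.29 without ARNT KO replicate 3. The difference between the effects was −1.07 ± 0.46 (unadjusted p = 0.0393, edgeR adjusted p = 0.495).

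Trim24 (chromosome 6, 37870811 to 37966296 on the plus strand) encodes a nuclear receptor cofactor that restrains liver tumours in mice. It averaged 109 ± 4.17 CPM in AHR KO livers and 102 ± 13.5 CPM in AHR Flox livers, and 92.0 ± 18.5 CPM in ARNT KO livers and 95.7 ± 1.00 CPM in ARNT Flox livers (SD, n = 3 each). The log2 changes, 0.10 ± 0.13 and −0.06 ± 0.13, did not pass (edgeR adjusted p = 0.826 and 1.00).

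Over the 10 genes, the median log2 change was 0.22 in AHR KO and −0.24 in ARNT KO, against a median of 0.01 over all genes tested in both comparisons. Socs2, Cish, Igf1, Igfals, Cux2 and Trim24 had a positive log2 change in AHR KO and a negative one in ARNT KO, which 24.4% of all genes had. Without ARNT KO replicate 3 this held for 4 of the 10, Socs2, Cish, Igf1 and Cux2, and for 25.1% of all genes. In the fit to all 12 libraries, signs were opposite in the knockouts for 9 of the 10 genes, with Ghr, Stat5b and Trim24 close to 0, and for 50.3% of all genes. Without ARNT KO replicate 3, Igfals (0.33 in AHR KO and 0.02 in ARNT KO) and Trim24 (0.10 and 0.08) were positive in both. In the fit without that library the ARNT median was −0.05 and the AHR median 0.21, and none of the 10 passed in ARNT KO, where 1.37% of all genes did. For the difference between the effects, Socs2, Cish, Igf1 and Cux2 had an unadjusted p under 0.05, all in the lower direction, against 9.51% of all genes in either direction and 5.02% in the lower one. All 3 livers lay on one side of their controls for 4 of the 10 genes in AHR KO, against 21.2% of all genes, and for 2 of the 10 in ARNT KO, against 10.8%.

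The control lines were compared as well, since each knockout is read against its own line. None of the 10 genes passed in ARNT Flox against AHR Flox, where 0.329% of all genes passed, or 23 genes in place of 46 with the replicate number as a block. Socs2 was 1.83-fold higher in ARNT Flox (76.7, 37.1 and 41.4 CPM) than in AHR Flox (34.1, 25.9 and 25.1 CPM), a log2 change of 0.87 ± 0.25 without overlap (edgeR adjusted p = 0.140). Ghr, Stat5a and Stat5b were lower in every ARNT Flox liver than in every AHR Flox liver, by −0.37 ± 0.22, −0.44 ± 0.16 and −0.20 ± 0.12 on the log2 scale. In all, 4 of the 10 genes did not overlap between the control lines, against 35.8% of all genes (18.1% higher and 17.7% lower). Socs2 (higher) and Stat5a (lower) had an unadjusted p under 0.05, against 19.9% of all genes, 10.5% higher and 9.33% lower. Without ARNT KO replicate 3, Socs2 (edgeR adjusted p = 0.0491) and Ghr (edgeR adjusted p = 0.0385) passed in this comparison, where 10.9% of all genes did, and DESeq2 called Socs2 (adjusted p = 0.0341) where it called 4.1% of all genes. The level of Socs2 in ARNT KO livers, 24.6 ± 2.37 CPM, lay next to that of AHR Flox livers, 28.4 ± 4.96 CPM, with overlapping values (SD, n = 3 each).

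When both knockouts were averaged against both Flox groups, none of the 10 genes passed, where 0.0143% of all genes did. Bcl6 alone had an unadjusted p under 0.05 (log2 change −0.63 ± 0.21, unadjusted p = 0.0129, edgeR adjusted p = 0.405), which 8.91% of all genes had (4.27% in the lower direction). In the fit without ARNT KO replicate 3, 0.696% of all genes passed this comparison and none of the 10, and DESeq2 called 0.788% and none of the 10. Socs2 averaged out in this comparison, at 0.19 ± 0.18.

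Levels of several of these genes were correlated over the 12 libraries. Of the 45 pairs among the 10 genes, 38 had a positive Pearson r of log2 CPM over the 12 libraries. A two-sided permutation test with Benjamini-Hochberg adjustment over the 45 pairs was passed by 13. No share of such pairs among other genes is given beside these counts. The permutations ran over all 12 libraries, so differences between groups count in them. So does ARNT KO replicate 3, the lowest library for 21.5% of all genes tested. Each of the 10 had a higher r with some genes outside the set, given below. Socs2 and Cish, the feedback inhibitors, had r = 0.83 (permutation p = 0.00016, adjusted 0.0072) and Spearman's rho = 0.83 (permutation p = 0.00118, adjusted 0.024). Their r was 0.70 without AHR KO replicates 1 and 3, the libraries farthest from the median of Socs2. As deviations from the group means, so that differences between groups play no part, the pair had r = 0.74, with an exact within-group permutation p of 0.00926 and an adjusted value of 0.319.

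**Figure D3:**
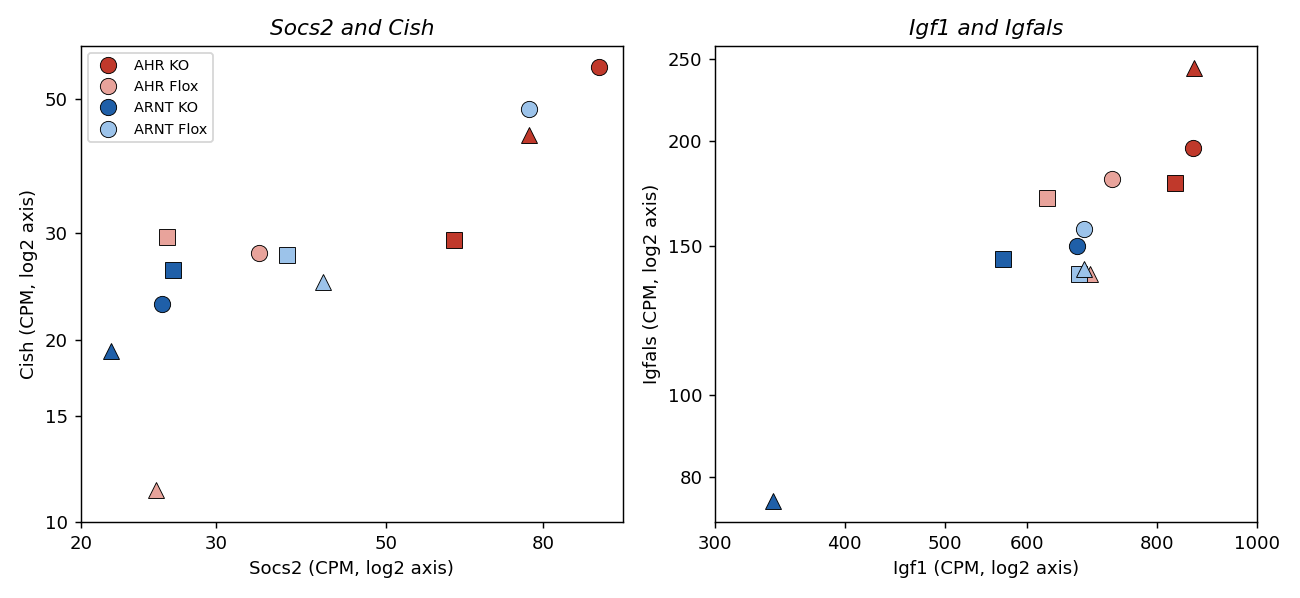
Level of Cish against Socs2 (left) and of Igfals against Igf1 (right) in the 12 livers, in CPM on log2 axes. Colours mark the groups, and circles, squares and triangles mark replicates 1, 2 and 3. The livers with most Socs2, AHR KO 1 and 3 and ARNT Flox 1, also have most Cish, and ARNT KO 3 lies lowest for Igf1 and Igfals.

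Igf1 and Igfals, which encode proteins of the same blood complex, had r = 0.92 (permutation p = 0.00043, adjusted 0.00776) and rho = 0.71 (permutation p = 0.0126, adjusted 0.0516). The r was 0.76 without ARNT KO replicate 3 and 0.67 without that library and AHR KO replicate 3. Cish and Cux2 had r = 0.79 (permutation p = 0.0021, adjusted 0.0135) and rho = 0.89 (permutation p = 0.00023, adjusted 0.0103), and r = 0.66 without the 2 farthest libraries. Ghr and Stat5b had r = 0.85 (permutation p = 0.0006, adjusted 0.00776), rho = 0.83 (permutation p = 0.0016, adjusted 0.024) and r = 0.68 without the 2 farthest libraries. Ghr and Igf1 had r = 0.76 (permutation p = 0.0229, adjusted 0.0688) and rho = 0.31 (permutation p = 0.332, adjusted 0.553). Their r was 0.16 without ARNT KO replicate 3 and ARNT Flox replicate 1. As deviations from the group means, with ARNT KO replicate 3 included, it was 0.92 (exact within-group permutation p = 0.091, adjusted 0.391). Ghr and Socs2 had r = 0.19 (permutation p = 0.599, adjusted 0.709) and rho = −0.03 (permutation p = 0.922, adjusted 0.922), and r = −0.01 without the same libraries.

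Bcl6 had a negative r with 5 of the other 9 genes. Against Cish it had r = −0.57 (permutation p = 0.0642, adjusted 0.131) and rho = −0.26 (permutation p = 0.42, adjusted 0.61), and r = 0.30 without AHR KO replicate 1 and AHR Flox replicate 3, so the negative value rests on those libraries. Only 1 of the 45 pairs passed without ARNT KO replicate 3, and with deviations from the group means none did. The deviations were tested within groups, where the smallest possible exact p is 0.000772. As deviations, r was 0.82 for Ghr and Stat5b (exact within-group permutation p = 0.061, adjusted 0.391). It was 0.85 for Igf1 and Igfals (exact within-group permutation p = 0.104, adjusted 0.391). Both values include ARNT KO replicate 3, the lowest library for Ghr, Stat5b, Igf1 and Igfals, and deviations without it are not given.

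**Figure D4:**
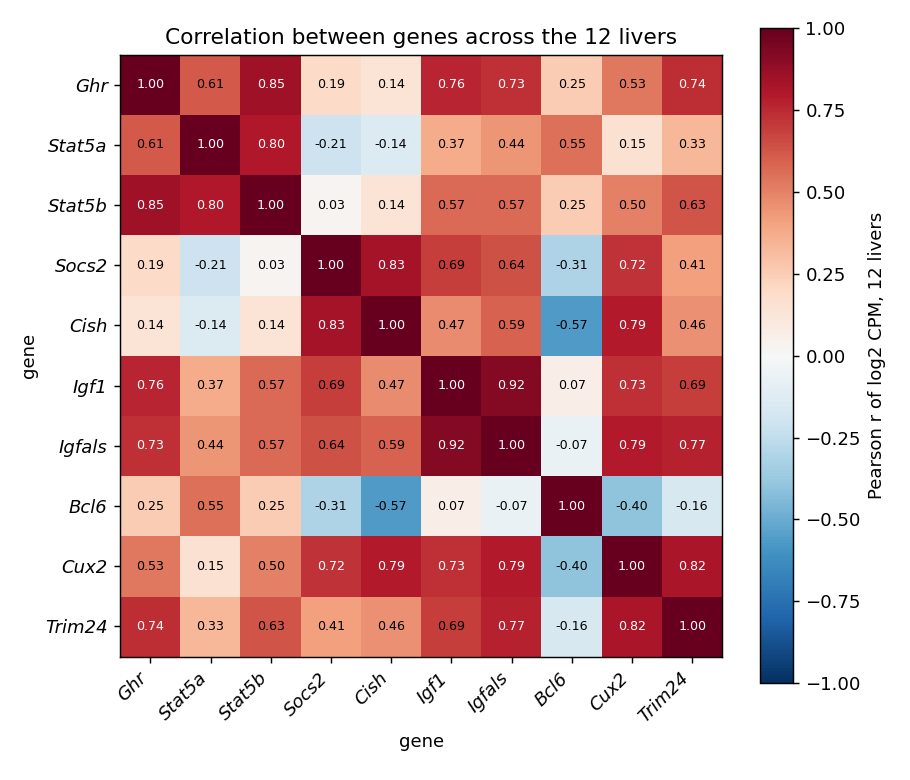
Pearson r of log2 CPM between each pair of the 10 genes over the 12 livers, coloured from −1 (blue) to 1 (red). Socs2 and Cish have 0.83 and Igf1 and Igfals 0.92, and Bcl6 has negative values with Socs2, Cish, Igfals, Cux2 and Trim24.

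Among 12258 genes with a mean of at least 1 CPM, the pattern most like that of Socs2 over the 12 libraries was that of Gm16551 and of Ccni, each with r = 0.88. The genes most like Igf1 were Mospd3 (r = 0.95) and the hepatic lipase gene Lipc (r = 0.93). Those most like Igfals were the transferrin receptor gene Tfr2 (r = 0.96) and Abca8a (r = 0.95), those most like Cish were Spnb1 (r = 0.89) and Slc27a1 (r = 0.88), and those most like Bcl6 were Tlr12 (r = 0.88) and Plekhm1 (r = 0.87). For Ghr they were Gcdh and Grid1 (r = 0.98 each), for Stat5b Fbxo8 and Tnrc6b (0.95 each), for Stat5a Zfp397 (0.93), for Cux2 0610010K14Rik (0.94) and Hnrpdl (0.93), and for Trim24 Aqp9 (0.94) and Pex26 (0.92). These values describe likeness over libraries that share groups and depth.

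The rest of the pathway was read from 7 lists, and edgeR called no gene of any of them in either knockout or in the difference between the effects, where it called 0.0788%, 0.0573% and 0.043% of all genes. DESeq2 called 1 related receptor or STAT gene, 2 IGF axis genes, 1 other target, 4 female-biased and 3 male-biased genes in AHR KO, and 1 male-biased gene in ARNT KO. For the difference it called 2 related receptor or STAT genes, 1 IGF axis gene, 1 other target, 2 female-biased and 3 male-biased genes. Of all genes, DESeq2 called 2.57% in AHR KO, 0.401% in ARNT KO and 1.06% for the difference. The list counts below at an unadjusted p under 0.05 stand beside 11.9% of all genes in AHR KO (6.33% higher and 5.58% lower) and 5.88% in ARNT KO (2.53% lower). In the list of JAK2, adaptors and phosphatases of the receptor, 2 of 20 genes in AHR KO and none in ARNT KO had an unadjusted p under 0.05, and the median log2 change was −0.04 in both. Sos1, an exchange factor of the RAS branch, held 42.3, 41.7 and 41.1 CPM in AHR KO livers, against 47.2, 54.0 and 53.6 CPM in AHR Flox livers (log2 change −0.31 ± 0.09, edgeR adjusted p = 0.182). Jak2 itself averaged 25.3 ± 0.619 CPM in ARNT KO livers and 28.2 ± 0.710 CPM in ARNT Flox livers (SD, n = 3 each), a log2 change of −0.16 ± 0.09 (edgeR adjusted p = 0.862). In the list of other SOCS and PIAS inhibitors, 1 of 11 genes had an unadjusted p under 0.05 in AHR KO and none in ARNT KO. That gene was Siah2, a ubiquitin ligase that belongs to neither family, at 0.26 ± 0.11 (edgeR adjusted p = 0.366).

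In the list of related cytokine receptors and STATs, 3 of 13 genes in AHR KO (2 higher and 1 lower) and 3 in ARNT KO (all lower) had an unadjusted p under 0.05, and 12 of 13 had a negative log2 change in ARNT KO (median −0.18), as 47.4% of all genes did. The leptin receptor gene Lepr held 22.7, 46.8 and 75.8 CPM in AHR KO livers, against 9.67, 20.6 and 4.76 CPM in AHR Flox livers. It held 7.14, 10 and 16.7 CPM in ARNT KO livers, against 27.6, 22.1 and 53.2 CPM in ARNT Flox livers. Like Socs2, Lepr lay on opposite sides of its controls without overlap, at 2.05 ± 0.57 in AHR KO (edgeR adjusted p = 0.169) and −1.60 ± 0.56 in ARNT KO (edgeR adjusted p = 0.687). The difference between its effects, −3.65 ± 0.80, missed the threshold (edgeR adjusted p = 0.194) and passed without ARNT KO replicate 3 (−4.03, edgeR adjusted p = 0.0434). Lifr, the leukaemia inhibitory factor receptor gene, had 333, 321 and 343 CPM in AHR KO livers, against 233, 282 and 238 CPM in AHR Flox livers, and 217, 180 and 125 CPM in ARNT KO livers, against 270, 218 and 244 CPM in ARNT Flox livers. The log2 change of Lifr in ARNT KO was −0.49 ± 0.17 (edgeR adjusted p = 0.687), or −0.29 ± 0.12 without ARNT KO replicate 3. Its difference between the effects was −0.89 ± 0.24 (edgeR adjusted p = 0.288).

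Of 17 genes of the IGF axis 13 were tested, with 2 higher and 1 lower at an unadjusted p under 0.05 in AHR KO and none in ARNT KO. Igfbp2, an IGF-binding protein gene, held 620, 715 and 1110 CPM in AHR KO livers, against 264, 467 and 194 CPM in AHR Flox livers (log2 change 1.40 ± 0.33, edgeR adjusted p = 0.124). Its levels were 435, 387 and 237 CPM in ARNT KO livers, against 456, 529 and 551 CPM in ARNT Flox livers (log2 change −0.54 ± 0.32, edgeR adjusted p = 0.911, or −0.31 ± 0.32 without ARNT KO replicate 3). Both pairs were again without overlap and on opposite sides, and the difference of −1.94 ± 0.46 did not pass (edgeR adjusted p = 0.230). Grb14, an inhibitor of insulin receptor signalling, averaged 43.4 ± 2.92 CPM in AHR KO livers and 58.7 ± 5.81 CPM in AHR Flox livers (SD, n = 3 each), with a log2 change of −0.44 ± 0.10 (edgeR adjusted p = 0.125, and 0.0451 without ARNT KO replicate 3).

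Of 26 other liver targets of growth hormone or STAT5, 3 in AHR KO (2 higher and 1 lower) and 2 in ARNT KO (1 higher and 1 lower) had an unadjusted p under 0.05. Cdkn1a, a cell cycle inhibitor gene, was the one higher in ARNT KO, with 6.95, 9.15 and 95.4 CPM in ARNT KO livers, against 7.5, 11.5 and 13.4 CPM in ARNT Flox livers. Its log2 change of 1.79 ± 0.79 (edgeR adjusted p = 0.820) became −0.42 ± 0.30 without ARNT KO replicate 3. Onecut1, the gene of the transcription factor HNF6, held 44.6, 12.6 and 18.0 CPM in AHR KO livers, against 11.6, 13.5 and 11.3 CPM in AHR Flox livers. It held 12.5, 14.4 and 10.7 CPM in ARNT KO livers, against 28.7, 25.7 and 16.3 CPM in ARNT Flox livers. AHR KO replicate 1, which had the most Socs2 and Cish, also had the most Onecut1. The log2 change was 1.05 ± 0.38 in AHR KO (edgeR adjusted p = 0.302), or 0.33 ± 0.23 without that library, and −0.92 ± 0.38 in ARNT KO (edgeR adjusted p = 0.793).

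The sex-biased genes, which read the pattern of growth hormone release, made up the last lists. Of 32 tested female-biased genes, 26 had a positive log2 change in AHR KO (median 0.38), as 51.1% of all genes did, with 6 higher and 3 lower at an unadjusted p under 0.05. In ARNT KO 15 were positive (median −0.04), as 52.6% of all genes were, with 2 higher and 3 lower. Without ARNT KO replicate 3 edgeR called 1 higher and 1 lower in AHR KO and 2 higher in ARNT KO, where 0.966% and 1.37% of all genes passed. Ntrk2, a neurotrophin receptor gene of this list, held 4.59, 17.9 and 12.6 CPM in AHR KO livers, against 75.5, 25.3 and 66.8 CPM in AHR Flox livers. Every AHR KO liver lay below every AHR Flox liver, and the log2 change of −2.26 ± 0.46 missed the threshold (edgeR adjusted p = 0.0871) and passed without ARNT KO replicate 3 (edgeR adjusted p = 0.0452) or AHR Flox replicate 2 (0.0366).

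Of 21 tested male-biased genes, 3 were higher and 2 lower in AHR KO at an unadjusted p under 0.05 (median 0.09), and 5 were higher and 2 lower in ARNT KO (median 0.27). The ARNT KO median was 0.18 without ARNT KO replicate 3. In ARNT Flox against AHR Flox, 7 were lower and 1 higher at such a p (median −0.45), against 9.33% and 10.5% of all genes. The part of that line difference in the ARNT KO values was not tested. Cyp2d9, a male-biased steroid hydroxylase gene, averaged 42.1 ± 23.8 CPM in ARNT KO livers and 4.70 ± 0.864 CPM in ARNT Flox livers (SD, n = 3 each). Its log2 change of 3.16 ± 0.52 missed the threshold (edgeR adjusted p = 0.115) and passed without ARNT KO replicate 3 (edgeR adjusted p = 0.00224) or AHR KO replicate 1 (0.0464). Cyp2d9 also differed between the control lines, at −2.27 ± 0.52 in ARNT Flox against AHR Flox (edgeR adjusted p = 0.0842). Reads of the Cyp2d family can be split among near-identical copies, so its level is uncertain.

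**Figure D5:**
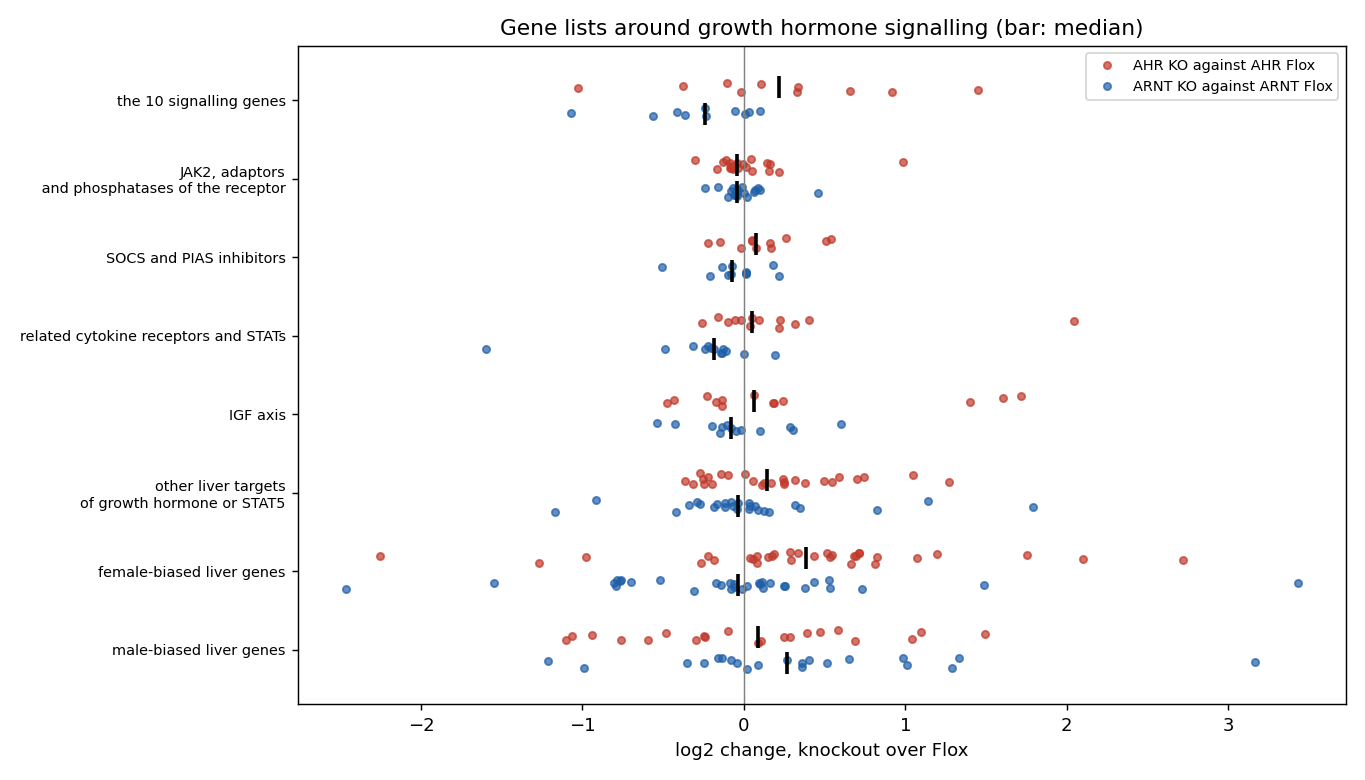
Log2 change of every tested gene of each list in AHR KO against AHR Flox (red) and ARNT KO against ARNT Flox (blue), with the median as a black bar. The 10 signalling genes have medians of 0.22 and −0.24, and the female-biased genes 0.38 and −0.04.

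Markers of other cell types were read in the same livers. The 12 lymphocyte markers summed to 11.5 to 15.1 CPM in AHR KO livers, against 9.44 to 12.6 CPM in AHR Flox livers, and to 13.5 to 17.4 CPM in ARNT KO livers, against 13.3 to 19.0 CPM in ARNT Flox livers. The 10 macrophage markers in the table summed to 538 to 628 CPM in AHR KO livers, against 477 to 695 CPM in AHR Flox livers, and to 613 to 1030 CPM in ARNT KO livers, against 743 to 775 CPM in ARNT Flox livers. Sums of the 10 stellate markers were 398 to 552 CPM in AHR KO livers, against 440 to 578 CPM in AHR Flox livers, and 516 to 804 CPM in ARNT KO livers, against 618 to 755 CPM in ARNT Flox livers. Sums of the 8 endothelial markers were 215 to 275 CPM in AHR KO livers, against 236 to 281 CPM in AHR Flox livers, and 280 to 309 CPM in ARNT KO livers, against 282 to 334 CPM in ARNT Flox livers. Lymphocyte, macrophage, stellate and endothelial sums thus overlapped within both pairs of groups. Between the control lines, each of these sums was higher in every ARNT Flox liver than in every AHR Flox liver. Higher in ARNT Flox at an unadjusted edgeR p under 0.05 were 6 of 12 lymphocyte and 8 of 10 macrophage markers. The same held for 4 of 10 stellate and 2 of 8 endothelial markers, against 10.5% of all genes, and 0 of these markers were lower at such a p. The 6 cholangiocyte markers summed to 51.8 to 58.8 CPM in AHR KO livers, against 59.9 to 70.0 CPM in AHR Flox livers, without overlap. In ARNT KO livers they summed to 46.0, 80.4 and 310 CPM, against 71.8 to 112 CPM in ARNT Flox livers, and the highest was replicate 3. The cholangiocyte sum, too, was higher in every ARNT Flox liver than in every AHR Flox liver. The 9 hepatocyte markers in the table summed to 45400 to 50300 CPM in AHR KO livers, against 117000 to 126000 CPM in AHR Flox livers, and to 35300 to 92600 CPM in ARNT KO livers, against 101000 to 122000 CPM in ARNT Flox livers. The AHR Flox sum is mostly Alb, which held 6310 ± 800 CPM in AHR KO livers and 84000 ± 5430 CPM in AHR Flox livers (SD, n = 3 each; edgeR adjusted p = 0.0629), while 6 of the 9 hepatocyte markers had a positive log2 change in AHR KO. The macrophage, stellate, endothelial and cholangiocyte lists had 0 genes at an unadjusted p under 0.05 in either knockout. The lymphocyte list of 12 had 4 higher and 2 lower in AHR KO and 1 higher in ARNT KO. In AHR KO the hepatocyte list of 9 had 1 higher and 1 lower, and both tested genes of the red cell list were lower. Those lists had 0 in ARNT KO. Of all genes, 11.9% had such a p in AHR KO (6.33% higher and 5.58% lower) and 5.88% in ARNT KO. Of the red cell list, Hba-a1, Hba-a2, Hbb-b1 and Hbb-b2 were listed at 0 in all 12 libraries, and all its genes in the table summed to 13.6 to 17.2 CPM in AHR KO livers, against 18.8 to 28.7 CPM in AHR Flox livers, and to 19.6 to 30 CPM in ARNT KO livers, against 19.6 to 25.7 CPM in ARNT Flox livers. The part of these cell types in the values of the 10 genes was not tested.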

How the data were processed

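Trizol-extracted RNA was poly-A selected for NEBNext Ultra II libraries, per the labels' protocols. Tools named in the submitters' processing notes are STAR (2.5.4b and 2.6.0c), bcl2fastq 2.20, DESeq2 1.20.0 and R 3.5.1, and the build is mm10. The authors deposited raw counts per gene and library. Not given in the sources used here are the counting tool, its annotation and its strand setting.

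From these counts, edgeR 4.0.16 (R 4.3.3) was fitted once to the 12 libraries, each group having its own mean. Genes were kept with filterByExpr (minimum count 10, minimum total 15), which kept 13968 genes holding 99.98% of reads. TMM scaled the libraries, and the two-sided quasi-likelihood test was adjusted over all genes tested (Benjamini-Hochberg) and called under 0.05. The common biological coefficient of variation was 17.5%. CPM are the scaled counts, without a pseudocount. Standard errors were computed from the log2 change and its F statistic. Within groups no libraries were duplicates (chi-square per degree of freedom 16.6 to 237). The tests recovered planted changes when tested on simulated data, and the share recovered is not given here. Those data held no library set apart like ARNT KO replicate 3, so they do not show the power in these livers. Positions and exon lengths come from GENCODE M21 (GRCm38, the same assembly as mm10), and promoter sequences from RefSeq (GRCm38.p6).

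Correlations used log2 CPM, 100000 permutations, and exact permutation within groups (1296 arrangements) for deviations from group means. Alternatives were DESeq2 size factors, TMM after dropping the 50 most abundant genes, a filter at 1 CPM in 3 libraries or none, DESeq2 1.42.0, limma-voom (limma 3.58.1), a replicate block, fits on just the groups compared, and each library left out. Alternatives for the correlations were chosen after seeing the data. Libraries of the Flox lines with the same replicate number had residual correlations of 0.327, 0.153 and 0.101, all over 0.1, although ARNT Flox replicate 3 did not correlate best with its own number. They were taken as paired, so the count with the block stands beside that comparison. The block was fitted to all 12 libraries, the KO livers included, and is not a paired test of the Flox lines alone. Gene values for the Flox lines are from the fit without the block. Between these lines the block called none of the 10 genes (Socs2 0.82 ± 0.17, edgeR adjusted p = 0.0953). The labels state no pairing.

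The 10 genes and the lists were chosen with earlier results of these data known. Of each list, called genes or else the 2 with the smallest p per contrast could be named. Of these genes, only some were named in the text, and 1 result is not reported here. For likeness, the 2 genes with the highest r were taken.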

Additional observations from a re-analysis of the deposited data

Results flagged for a closer look

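Socs2 is the 1 of the 10 genes whose response differed between the knockouts by a test of the difference itself. The ARNT KO effect minus the AHR KO effect was −2.52 ± 0.36 on the log2 scale (edgeR quasi-likelihood adjusted p = 0.0461), with effects of −1.07 in ARNT KO and 1.45 in AHR KO. With 1 library left out the difference ran from −2.70 to −2.12 and the call was lost in 9 of 12 fits (edgeR adjusted p up to 0.187), and the ARNT KO effect was −0.67 without ARNT Flox replicate 1. All 3 ARNT KO livers lay below their controls and all 3 AHR KO livers above theirs. The Flox lines differed by 0.87 in Socs2 (ARNT Flox over AHR Flox), and the part of that difference in the result was not tested.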

How the results depend on the processing

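Of 980 log2 changes of the 10 genes under the alternatives, 925 kept their direction and their side of the threshold, 13 passed only under the alternative, 9 no longer passed and 33 turned sign. The 9 are the fits of the Socs2 difference with 1 library left out that the report lists. Every change of sign was in a value that had not passed the test. Where leaving out libraries turned a sign, the log2 change ran as follows. In AHR KO, Ghr ran from −0.14 to 0.05. In ARNT KO, Ghr ran from −0.11 to 0.37, Stat5a from −0.18 to 0.18, Stat5b from −0.13 to 0.13, Igfals from −0.40 to 0.02 and Trim24 from −0.21 to 0.08. limma-voom gave −0.01 for Stat5a and Stat5b, and the replicate block −0.01 for Stat5b. In the difference between effects, Ghr ran from −0.08 to 0.40 and Stat5b from −0.02 to 0.24. For both knockouts against both Flox groups, Ghr ran from −0.07 to 0.17, Stat5b from −0.12 to 0.01, Igf1 from −0.13 to 0.10, Igfals from −0.04 to 0.18, Cux2 from −0.06 to 0.26 and Trim24 from −0.06 to 0.09. In ARNT Flox against AHR Flox, Igf1 ran from −0.07 to 0.04 (0.0027 with the 1 CPM filter), Cux2 from −0.17 to 0.37 and Trim24 from −0.16 to 0.02.

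The numbers of genes called depended on the tool and the libraries. DESeq2 called 359 genes in AHR KO in place of 11, 56 in ARNT KO in place of 8, 148 in place of 6 for the difference, 110 in place of 2 for both knockouts, and 572 in place of 46 between the Flox lines. Without a filter edgeR called 28 in AHR KO, and with the 1 CPM filter 19. limma-voom called 5 in ARNT KO. With only the groups of the contrast edgeR called 1 gene in ARNT KO and 1615 between the Flox lines. With 1 library left out, calls ran from 5 to 136 in AHR KO, 1 to 193 in ARNT KO, 1 to 194 for the difference, 2 to 98 for both knockouts and 12 to 1532 between the Flox lines, each highest without ARNT KO replicate 3. The cause was not tested.

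Of the 10 genes in AHR KO, 1 was called without a filter, with the replicate block and with only the groups of the contrast, and 2 by DESeq2. DESeq2 called 1 in ARNT KO and 1 between the Flox lines, where the fit of only those groups called 2. With 1 library left out, 0 to 1 of the 10 were called in AHR KO, 0 to 1 for the difference, and 0 to 2 between the Flox lines. The correlated pairs numbered 1 to 14 with 1 library left out, 10 with Spearman's rho and 0 as deviations from group means.

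The replicate block gave 10 calls in AHR KO, 3 in ARNT KO and 23 between the Flox lines. Same-numbered residuals correlated at 0.0138, 0.0496 and 0.141 in the AHR groups and at −0.037, −0.00755 and −0.0123 in the ARNT groups, not all over 0.1, so those samples share only a number. Not every library correlated best with its own number there. Under the block Socs2 passed in AHR KO (edgeR adjusted p = 0.0199).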
